A study of Mus musculus with 32 samples.

Results

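Mouse epiblast-like cells (EpiLCs) that had been aggregated and given germ cell-inducing cytokines for 2 days were compared with aggregated cells of the same clone that had not been given them. Of 32 arrays in the series, 4 made up the comparison: 2 of cytokine-induced primordial germ cell-like cells (Ck-PGCLCs) at day 2, and 2 of the parental clone with doxycycline at day 2. The arrays were chosen by their labels alone, and all 15497 genes that passed a filter on dim signal, of 18193 annotated genes, were tested. The cytokine mix of Ck-PGCLCs held LIF (1000 U/ml), EGF (50 ng/ml), SCF (100 ng/ml) and, at 500 ng/ml apiece, BMP8A and BMP4. Parental cells received doxycycline at 1.5 μg/ml and, as the negative control, are labelled with no cytokine. Both groups carried the same alleles, the reporters Blimp1-mVenus and stella-ECFP and the doxycycline-dependent activator Rosa26-rtTA, in the male clone BVSCR26rtTA of C57BL/6 + 129 background, and neither carried the factor transgenes used elsewhere in the series. Beside them, values are given for EpiLCs of this clone after 36 h of differentiation, for its Ck-PGCLCs at day 4, for BP14A cells at day 2 and for BP14A ESCs in 2i+LIF. BP14A cells carry doxycycline-driven Blimp1, Prdm14 and Tfap2c and were induced without cytokines. Each group had 2 arrays. They are described as biological duplicates with no separate cultures named, so a p-value here weighs a difference against array-to-array spread that could be technical.

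Several limits of the design apply to every result. All cells came from a single clone. The 5 added proteins were given together, so the response to each cannot be told apart. The labels do not say whether Ck-PGCLCs also received doxycycline, so effects of cytokines and of doxycycline cannot be told apart either. No sort is named for either group, and in such bulk samples fewer cells of a type and less RNA per cell cannot be told apart. The parental cells are labelled as an ESC clone, while the shared protocol describes aggregation at 2000 cells per well after 36 h as EpiLCs.

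Germ cells of the mouse embryo arise from a few epiblast cells next to the extraembryonic ectoderm, which secretes BMP4. BMP ligands bind type I and type II receptors, SMAD1, SMAD5 and the related SMAD8 are phosphorylated and join SMAD4, and the complex activates genes such as those of the Id and Msx families. Antagonists and inhibitory SMADs, many of them induced by the signal, limit it. In the responding cells the regulators Blimp1 (gene Prdm1), Prdm14 and Tfap2c are switched on and the mesodermal programme that starts beside them is later shut down. LIF acts through its receptor, the shared subunit gp130 (gene Il6st) and STAT3, and SCF (gene Kitl) acts through the receptor KIT.

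The promoters of 5 genes are shown, picked from genes that moved by at least 8-fold and had an entry in the promoter set used. They are the BMP-linked regulators Gata3, Id4, Isl1 and Msx2, which rose, and Foxa2, an endoderm and node regulator, which fell. Not every such gene is shown, and Gata2 is one left out. Each is the 250 bases before the RefSeq gene start in assembly GRCm38.p6, read 5′ to 3′ on the gene's own strand. Capitals mark GGCGCC, a GC-rich element bound by SMAD1 and SMAD5, and GTCTG or its reverse complement CAGAC, the element bound by SMADs in general. Gata3 lies on the minus strand, at chr2:9878601-9878850.
Gata3: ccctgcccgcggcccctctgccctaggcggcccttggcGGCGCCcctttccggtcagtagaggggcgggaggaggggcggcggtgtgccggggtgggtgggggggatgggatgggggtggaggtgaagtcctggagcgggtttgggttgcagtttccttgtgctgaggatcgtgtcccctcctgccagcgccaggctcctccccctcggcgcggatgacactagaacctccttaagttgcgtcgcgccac
Id4 lies on the plus strand, at chr13:48260866-48261115.
Id4: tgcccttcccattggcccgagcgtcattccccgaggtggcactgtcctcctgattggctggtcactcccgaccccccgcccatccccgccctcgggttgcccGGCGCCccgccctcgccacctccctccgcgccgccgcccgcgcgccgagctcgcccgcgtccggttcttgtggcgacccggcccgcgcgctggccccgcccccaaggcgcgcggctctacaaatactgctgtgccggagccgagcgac
Isl1 lies on the minus strand, at chr13:116309689-116309938.
Isl1: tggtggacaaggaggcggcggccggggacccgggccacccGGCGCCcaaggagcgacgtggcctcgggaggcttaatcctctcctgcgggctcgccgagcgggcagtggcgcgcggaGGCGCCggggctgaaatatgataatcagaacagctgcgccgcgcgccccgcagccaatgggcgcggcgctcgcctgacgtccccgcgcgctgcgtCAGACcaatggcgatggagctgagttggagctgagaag
Msx2 lies on the minus strand, at chr13:53472781-53473030.
Msx2: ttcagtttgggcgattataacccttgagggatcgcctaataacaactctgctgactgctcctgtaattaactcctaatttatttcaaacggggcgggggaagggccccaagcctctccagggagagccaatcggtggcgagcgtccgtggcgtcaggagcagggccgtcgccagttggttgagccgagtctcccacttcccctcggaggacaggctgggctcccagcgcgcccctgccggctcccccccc
Foxa2 lies on the minus strand, at chr2:148045465-148045714. Of its 3 RefSeq entries this is the one with the lowest coordinates, which on the minus strand is the furthest downstream.
Foxa2: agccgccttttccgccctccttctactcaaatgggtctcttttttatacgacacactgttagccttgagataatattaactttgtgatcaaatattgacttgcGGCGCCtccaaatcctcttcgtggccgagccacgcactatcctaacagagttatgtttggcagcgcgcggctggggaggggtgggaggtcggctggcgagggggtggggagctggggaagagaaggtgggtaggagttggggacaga
GGCGCC began 212 bases before the start of Gata3, 148 before that of Id4, 210 and 133 before that of Isl1, and 147 before that of Foxa2. GTCTG or CAGAC was found once, 38 bases before the start of Isl1, and Msx2 held neither motif in this window. Both strands were searched. Over 32851 promoters of the same length, 9.59% held GGCGCC and 42.2% held GTCTG or CAGAC. The STAT element TTCCNGGAA was in 0.913% of all promoters and the TCF/LEF element CTTTGAT in 3.21%, and neither was in the windows shown. Of the 10 BMP target genes counted as higher below, 6 had an entry, and GGCGCC was in 3 of them, Gata2, Gata3 and Id4. The matches describe letters in these windows, and the same element stands before genes that moved in opposite directions.

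Marker genes were set against the labels first, as the mean normalized log2 intensity of a panel on each array. Germ cell markers averaged 8.14 and 8.18 in Ck-PGCLCs, against 5.78 and 5.85 in parental cells, and 5 of 7 markers measured were higher. The same panel averaged 8.60 in BP14A ESCs, so its mean does not set Ck-PGCLCs apart from ESCs. Markers of naive ESCs averaged 8.02 and 8.39 in Ck-PGCLCs and 5.30 and 5.70 in parental cells, against 11.06 in BP14A ESCs, so the parental arrays did not carry the marker levels of ESCs. Primed epiblast markers averaged 6.25 and 6.28 in Ck-PGCLCs, against 9.57 and 9.94 in parental cells. Nascent mesoderm markers averaged 6.98 and 7.29 in Ck-PGCLCs and 5.01 and 4.62 in parental cells, with 2 of 5 higher (Mesp1 and Hand1). Tbx6 (difference 0.73), Kdr (-0.17) and Pdgfra (-0.225) were not called. Primitive streak markers overlapped, at 7.77 and 8.26 in Ck-PGCLCs against 7.39 and 8.14 in parental cells. Trophoblast markers averaged 5.82 and 5.69 in Ck-PGCLCs, against 4.74 and 4.39 in parental cells, with 1 of 4 higher (Gata3) and 1 lower (Krt7). Endoderm markers averaged 5.22 and 5.30 in Ck-PGCLCs and 6.15 and 6.18 in parental cells, with 1 of 6 lower (Foxa2), while Gata4, Ttr and Afp had higher, uncalled values in Ck-PGCLCs (differences of 0.90, 0.30 and 0.34). Neural markers averaged 4.05 and 4.42 in Ck-PGCLCs and 6.09 and 5.62 in parental cells, with 1 of 5 lower (Sox1). Endothelial and blood markers (4.58 and 4.82 in Ck-PGCLCs against 4.56 and 4.46 in parental cells) and feeder fibroblast markers (4.44 and 4.67 against 4.61 and 4.70) averaged near the filter value of 4.05, with Pecam1, Col1a1 and Postn below it on all 4 arrays. Col1a2 of the fibroblast panel was above it, with 6.94 and 7.21 in Ck-PGCLCs against 7.24 and 7.17 in parental cells. The replicate arrays correlated at 0.970 within Ck-PGCLCs and within parental cells, and between 0.958 and 0.961 across the groups. The 5′ minus 3′ difference of the Gapdh control probe sets, a sign of RNA or cDNA length, was -1.47 and -1.12 in Ck-PGCLCs, against -0.33 and -0.35 in parental cells, within a range of -4.66 to -0.07 over the series. It moved with the groups, and its part in the results was not tested. The same difference for Actb overlapped between the groups.

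In Ck-PGCLCs 360 genes were higher than in parental cells (2.32% of those tested) and 218 were lower (1.41%). Counting a gene required a limma adjusted p under 0.05 (Benjamini-Hochberg, over all tested genes) and a difference of at least 2-fold, and "rose" and "fell" are used only of such genes, for Ck-PGCLCs relative to parental cells. Among the genes that rose, 135 did so by at least 4-fold, 53 by at least 8-fold and 15 by at least 16-fold, with a median log2 difference of 1.76. Among those that fell the numbers were 73, 21 and 8, with a median of -1.64. Over all tested genes the median was 0.02. Counts of gene lists below stand beside the 2.32% higher and 1.41% lower over all tested genes. No list was tested against these shares. The lists were written with earlier results of these data known, so their shares and ranks are descriptive. The arrays of the groups did not overlap for any of the 578 counted genes, but this was also so for 53.9% of all tested genes, 28.7% with Ck-PGCLCs higher and 25.2% with Ck-PGCLCs lower. For 74 of the genes that rose the parental mean was below the filter value, and for 40 of those that fell the Ck-PGCLC mean was, so their fold differences rest on dim signals.

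**Figure D1:**
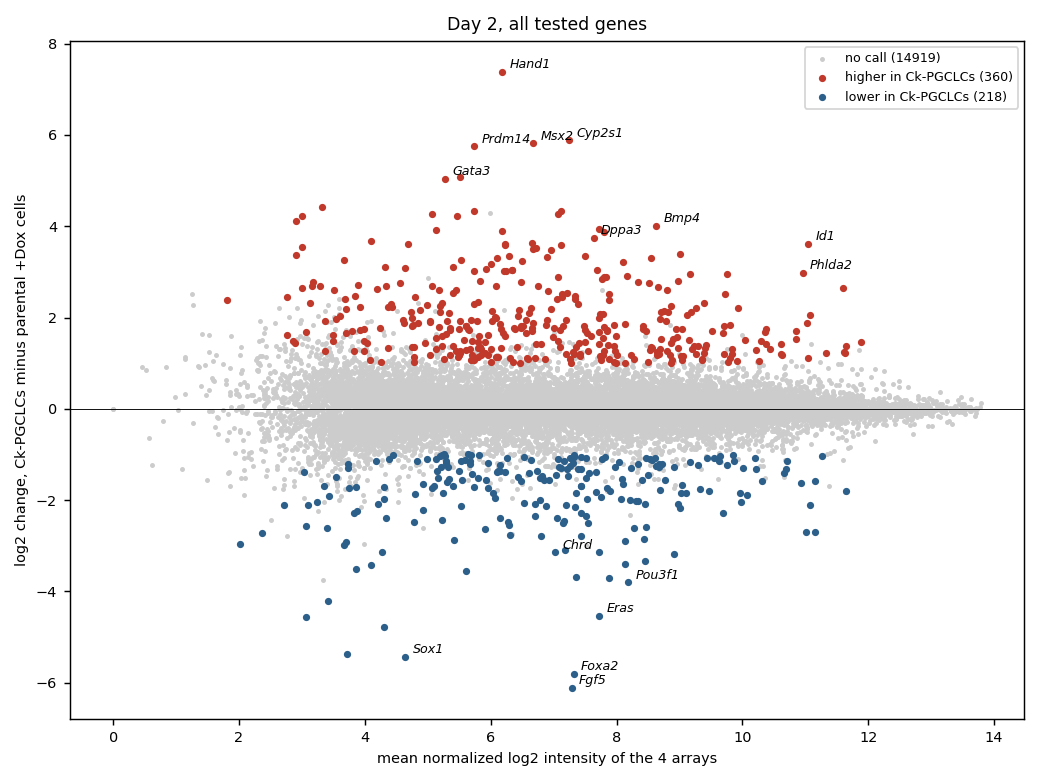
Log2 difference of Ck-PGCLCs minus parental cells at day 2 (vertical axis) against the mean normalized log2 intensity of the 4 arrays (horizontal axis), with a point for each of 15497 tested genes. The 360 genes counted as higher are red and the 218 counted as lower are blue, with Hand1 at the top and Fgf5 at the bottom.

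Of 18 tested BMP target genes, 10 rose and 1 fell, and their median log2 difference of 3.45 was the highest of the 37 gene lists. Hand1, a transcription factor of extraembryonic and lateral mesoderm, had 9.78 and 9.98 in Ck-PGCLCs, against 3.02 and 1.96 in parental cells (normalized log2 intensity, as are all levels below). Both Ck-PGCLC arrays were bright and both parental arrays were dim, and the log2 difference of 7.39 (SE 0.47, adjusted p = 5.9e-09) was the largest of all genes. Its second probe set above the filter gave 4.08. Msx2, a homeobox gene activated by BMP in many tissues, had 9.23 and 9.95 in Ck-PGCLCs, against 3.55 and 3.99 in parental cells. Its log2 difference was 5.82 (SE 0.42, adjusted p = 2.3e-08). Msx1, its close relative, had 11.20 and 11.28 in Ck-PGCLCs and 8.38 and 8.19 in parental cells, so it was already well expressed without cytokines. The zinc finger factors Gata3 and Gata2 were dim in parental cells, Gata3 at 7.76 and 7.83 in Ck-PGCLCs against 2.87 and 2.64 in parental cells. Gata2 had 7.98 and 7.82 in Ck-PGCLCs, against 3.37 and 3.75 in parental cells. Tbx3, a T-box factor also used by ESCs, had 9.27 and 9.08 in Ck-PGCLCs, against 6.04 and 5.60 in parental cells, with a difference of 3.35, but its mean over all probe sets gave 1.19 (adjusted p = 0.0565).

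The Id genes code for inhibitors of basic helix-loop-helix factors and are direct SMAD targets, and they did not move evenly. Id1 had 12.86 on both Ck-PGCLC arrays, against 9.32 and 9.16 on the parental arrays, a log2 difference of 3.62 (SE 0.19, adjusted p = 4.9e-10). Id4 had 7.74 and 8.32 in Ck-PGCLCs, against 3.70 and 5.17 in parental cells, a difference of 3.59 (SE 0.41, adjusted p = 9.9e-06). Id3 was bright in both groups, with 12.27 and 12.14 in Ck-PGCLCs against 11.54 and 11.37 in parental cells. The groups did not overlap, but the difference of 0.75 did not pass the test (95% interval -0.01 to 1.52, adjusted p = 0.34). Id2 had 6.78 and 9.48 in Ck-PGCLCs, against 2.01 and 5.68 in parental cells. Its replicates lay far apart in both groups, and the difference of 4.29 (95% interval 0.83 to 7.74) had an adjusted p of 0.18. Replicate 2 was the higher in both groups, and also in EpiLCs, Ck-PGCLCs at day 4 and BP14A cells at day 2. With a replicate block over all arrays Id2 was called (limma adjusted p = 0.0403). In EpiLCs Id1 averaged 6.74, below both day 2 groups, and parental cells exceeded EpiLCs by 2.50.

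Bmp4 itself was a member of the group that rose. It had 10.52 and 10.76 in Ck-PGCLCs, against 6.73 and 6.51 in parental cells and a mean of 6.77 in EpiLCs. The log2 difference from parental cells was 4.02 (SE 0.27, adjusted p = 9.1e-09). Bmp2, a related ligand, fell, with 4.13 and 4.36 in Ck-PGCLCs against 5.67 and 6.22 in parental cells. Its difference of -1.70 lost its call without Ck-PGCLC replicate 1 (adjusted p = 0.0596) and without parental replicate 2 (0.0939). Tbx2, a repressor of the T-box family, had 4.67 and 4.88 in Ck-PGCLCs against 0.28 and 2.17 in parental cells, and without parental replicate 1 its adjusted p was 0.0766.

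**Figure D2:**
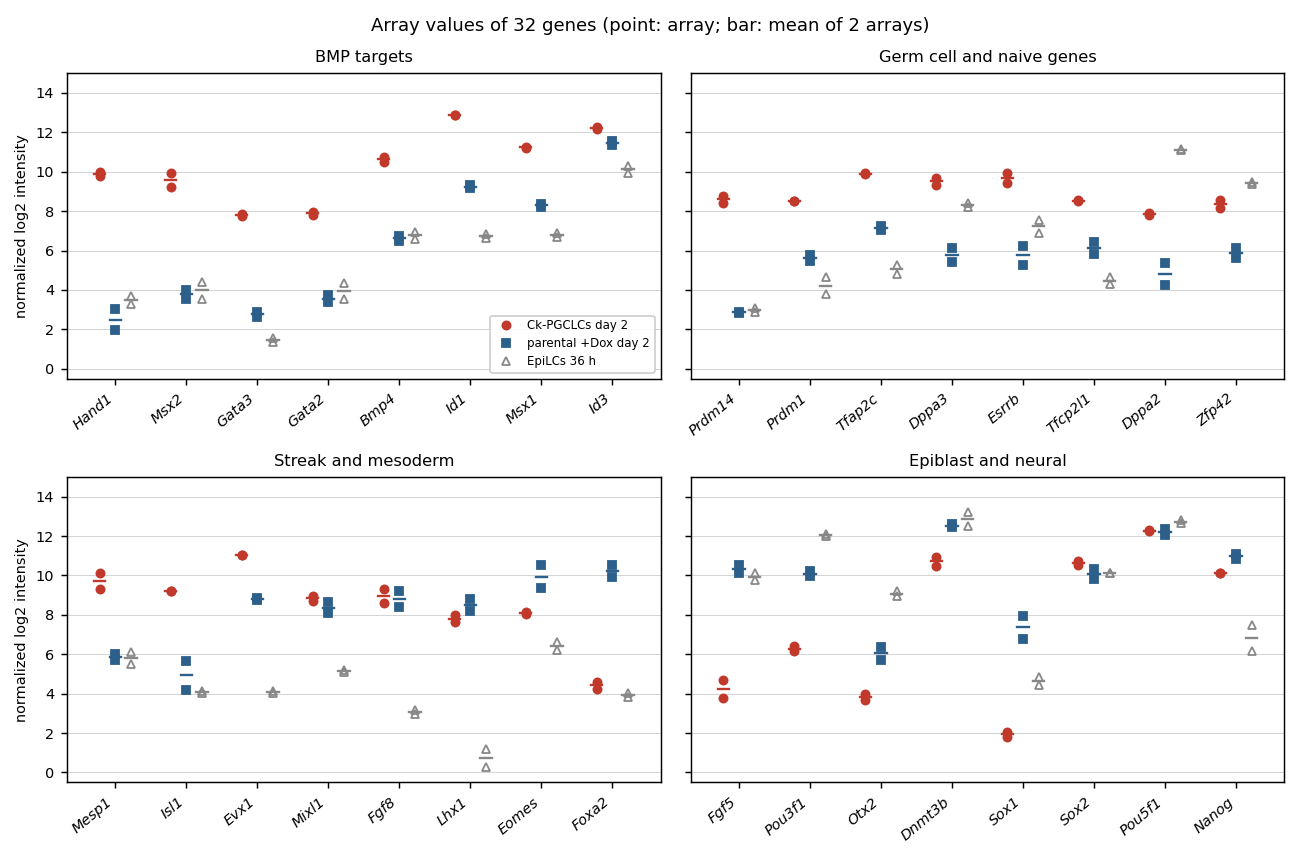
Normalized log2 intensity (vertical axis) of 32 genes on each array of Ck-PGCLCs at day 2 (red circles), parental cells at day 2 (blue squares) and EpiLCs (open triangles), with a bar at each mean of 2 arrays. Hand1, Msx2 and Prdm14 are high on the red arrays alone, Mixl1, Fgf8 and Lhx1 lie above the triangles in both day 2 groups, and Fgf5, Foxa2 and Sox1 are lower on the red arrays.

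Among 15 tested feedback genes and antagonists of BMP signalling, 3 rose and 2 fell. Bmper, which codes for a secreted BMP-binding protein, had 7.88 and 8.24 in Ck-PGCLCs, against 4.08 and 1.87 in parental cells, a difference of 5.09 (SE 0.59, adjusted p = 1.1e-05). Bambi, a pseudoreceptor that dampens the signal, had 9.55 and 9.81 in Ck-PGCLCs and 7.56 and 7.86 in parental cells. The inhibitory SMAD genes were less even between replicates. Smad6 had 6.95 and 7.79 in Ck-PGCLCs, against 5.28 and 5.91 in parental cells, and its call was lost without Ck-PGCLC replicate 2 (adjusted p = 0.222) and without parental replicate 1 (0.18). Smad7 had 8.02 and 9.01 in Ck-PGCLCs, against 5.14 and 6.77 in parental cells, with a difference of 2.56 that missed the threshold (adjusted p = 0.06) and passed it in 4 of 16 other settings, among them without parental replicate 2 (adjusted p = 0.0467). The antagonists that fell are known from the node and anterior endoderm. Chrd (chordin) had 5.36 and 5.55 in Ck-PGCLCs, against 8.61 and 8.59 in parental cells and a mean of 5.62 in EpiLCs. Its difference from parental cells was -3.14 (SE 0.25, adjusted p = 7.5e-08). Cer1 (Cerberus) had 1.79 and 2.41 in Ck-PGCLCs and 4.45 and 4.96 in parental cells, and its call was lost without any one of the 4 arrays (adjusted p up to 0.223).

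Of 21 tested receptors and transducers of the added proteins, 2 rose and 1 fell, and the median difference was 0.06. Lifr, the LIF receptor, had 8.91 and 9.20 in Ck-PGCLCs, against 7.22 and 7.18 in parental cells, a difference of 1.85 (SE 0.19, adjusted p = 2.3e-06). Stat3 had 9.42 and 9.27 in Ck-PGCLCs and 7.89 and 8.17 in parental cells, a difference of 1.31. For both genes 1 of the probe sets above the filter had the opposite sign, and the mean over all probe sets was no longer called (0.65 for Lifr with adjusted p = 0.0634, 0.53 for Stat3 with adjusted p = 0.115). Il6st passed the adjusted p (0.0061) but not the fold limit, with 9.56 and 9.70 in Ck-PGCLCs against 8.71 and 8.84 in parental cells. The type I BMP receptor Bmpr1a had 10.48 and 10.21 in Ck-PGCLCs and 10.33 and 10.25 in parental cells, with a difference of 0.06 (95% interval -0.38 to 0.50). Another type I receptor, Bmpr1b, was dim, with 4.71 and 4.45 in Ck-PGCLCs against 5.42 and 5.92 in parental cells, and its call was lost without any one array (adjusted p up to 0.358). The EGF receptor Egfr differed by 0.07 (95% interval -0.32 to 0.46). Kit, the receptor of SCF, had 8.02 and 8.08 in Ck-PGCLCs, against 8.30 and 8.62 in parental cells, and was not called at day 2. Its ligand gene Kitl rose, with 9.79 and 9.64 in Ck-PGCLCs against 6.93 and 6.08 in parental cells, a difference of 3.21 (SE 0.33, adjusted p = 2.3e-06), in 3 of its 4 probe sets above the filter.

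Of 14 tested target genes of LIF and STAT3, 4 rose, Stat3 among them. Tfcp2l1, a self-renewal factor of naive cells, had 8.52 and 8.55 in Ck-PGCLCs, against 5.84 and 6.43 in parental cells. Bcl3, an IκB family member induced by STAT3, had 7.93 and 7.39 in Ck-PGCLCs and 5.40 and 5.74 in parental cells. Klf5 had 8.07 and 7.86 in Ck-PGCLCs, against 6.41 and 6.07 in parental cells. Their log2 differences were 2.40, 2.09 and 1.73. With the mean over all probe sets Tfcp2l1 gave 0.59 (adjusted p = 0.546) and Klf5 gave 0.96, under the fold limit. Socs3, the feedback inhibitor of this pathway, had 7.48 and 7.65 in Ck-PGCLCs and 6.87 and 7.04 in parental cells, and the difference of 0.61 was not called (adjusted p = 0.61). Klf4 had 4.69 and 5.78 in Ck-PGCLCs, against 3.73 and 4.11 in parental cells, with no call (adjusted p = 0.42).

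Of 22 tested early germ cell genes 10 rose and the other 12 did not pass the test, and the median difference was 0.95. Prdm14, a regulator needed for germ cell specification and naive pluripotency, had 8.44 and 8.78 in Ck-PGCLCs, against 2.87 and 2.85 in parental cells and a mean of 2.98 in EpiLCs. Without cytokines it stayed at the level of the starting cells, and the difference was 5.75 (SE 0.25, adjusted p = 5.7e-11). Prdm1, which codes for the repressor Blimp1, had 8.51 and 8.52 in Ck-PGCLCs, against 5.49 and 5.77 in parental cells, a difference of 2.89 (SE 0.33, adjusted p = 8.5e-06). Tfap2c, an AP-2 factor of germ cells, trophoblast and surface ectoderm, had 9.87 and 9.95 in Ck-PGCLCs and 7.25 and 7.04 in parental cells. Its 3 probe sets gave differences between 1.71 and 2.76. Dppa3 (stella), an early germ cell marker, had 9.34 and 9.69 in Ck-PGCLCs, against 5.43 and 6.11 in parental cells. Its mean in EpiLCs was 8.30, between the groups, and the difference of Ck-PGCLCs from parental cells was 3.75 (SE 0.25, adjusted p = 9.3e-09). The X-linked homeobox gene Rhox9 had 5.49 and 5.57 in Ck-PGCLCs, close to its EpiLC mean of 5.55, against 0.80 and 1.39 in parental cells.

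Further members of the germ cell list follow, of which Itgb3 was not called. Dnd1, an RNA-binding protein needed for germ cell survival, had 8.69 and 8.77 in Ck-PGCLCs, against 7.03 and 6.43 in parental cells. Elf3, an ETS factor, had 9.87 and 9.79 in Ck-PGCLCs and 7.52 and 7.84 in parental cells. The interferon-inducible membrane protein gene Ifitm3 (fragilis) was bright in both groups, with 12.50 and 12.72 in Ck-PGCLCs against 11.13 and 11.18 in parental cells. Ifitm1, next in that family, differed by 1.21, and its call was lost without any one array (adjusted p up to 0.105). Fut4, whose product makes the SSEA1 antigen, differed by 1.93, with an adjusted p of 0.0502 without parental replicate 2. Itgb3, the integrin used to mark PGCLCs at later stages, had 4.15 and 3.47 in Ck-PGCLCs and 4.09 and 4.17 in parental cells, near the filter value, with no call.

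Naive pluripotency genes were the list with the highest share of counted members. Of 15 tested, 12 rose, with a median difference of 2.51, and Prdm14, Tbx3, Tfcp2l1 and Klf5 of the paragraphs above are among them. The orphan receptor gene Esrrb had 9.45 and 9.95 in Ck-PGCLCs, against 5.25 and 6.25 in parental cells, a difference of 3.95 (SE 0.53, adjusted p = 6.1e-05), with 1 of its 3 probe sets above the filter opposite in sign. Nr5a2, another orphan receptor gene, had 7.42 and 7.49 in Ck-PGCLCs and 4.18 and 4.60 in parental cells. Tcl1, a coactivator of AKT, rose by 3.01 (SE 0.23). Klf2 had 9.61 and 9.90 in Ck-PGCLCs and 7.54 and 8.12 in parental cells.

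Several of these genes were higher still in EpiLCs, and Ck-PGCLCs lay nearer to the EpiLC level than parental cells did. Zfp42 (Rex1) had 8.18 and 8.58 in Ck-PGCLCs, against 5.64 and 6.11 in parental cells, a difference of 2.51 (SE 0.21, adjusted p = 2e-07), and its EpiLC mean was 9.43. Nr0b1 (Dax1) had 7.25 and 7.63 in Ck-PGCLCs and 4.12 and 5.36 in parental cells, with a mean of 8.83 in EpiLCs. Fgf4, a growth factor of the epiblast, had 7.44 and 7.63 in Ck-PGCLCs, against 5.43 and 5.31 in parental cells and 10.93 in EpiLCs. Dppa5a followed the same order at a higher level, with 12.88 and 12.99 in Ck-PGCLCs, 9.99 and 10.57 in parental cells and 13.36 in EpiLCs. Gdf3, a TGFβ family ligand of pluripotent cells, had 8.92 and 8.85 in Ck-PGCLCs, against 6.95 and 7.13 in parental cells and 10.98 in EpiLCs. The paired chromatin proteins Dppa2 and Dppa4 were the 2 of 13 core pluripotency genes that rose. Dppa2 had 7.83 and 7.90 in Ck-PGCLCs, against 4.25 and 5.38 in parental cells and 11.11 in EpiLCs. Dppa4 had 9.31 and 9.64 in Ck-PGCLCs, against 7.66 and 8.23 in parental cells and 11.84 in EpiLCs.

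The central pluripotency factors did not pass the test. Pou5f1 (Oct4) had 12.29 and 12.27 in Ck-PGCLCs and 12.04 and 12.34 in parental cells, a difference of 0.09 (95% interval -0.20 to 0.39). Sox2 had 10.51 and 10.76 in Ck-PGCLCs, against 10.33 and 9.81 in parental cells (adjusted p = 0.12). Nanog was the one with the lower values in Ck-PGCLCs, 10.10 and 10.13 against 10.82 and 11.11 in parental cells, and its difference of -0.85 was not called (adjusted p = 0.4). Both groups were above the EpiLC mean of 6.80 for Nanog.

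Genes of the primed epiblast went the other way. Of 18 tested, 6 fell, with a median difference of -0.82. Fgf5, the standard marker of the postimplantation epiblast, had 4.68 and 3.78 in Ck-PGCLCs, against 10.13 and 10.55 in parental cells and a mean of 9.93 in EpiLCs. Parental cells thus stayed at the level of the starting cells, and the difference of -6.11 (SE 0.41, adjusted p = 9.1e-09) was the largest fall of all genes. Pou3f1 (Oct6) had 6.16 and 6.41 in Ck-PGCLCs, against 9.96 and 10.22 in parental cells, with 12.03 in EpiLCs. Otx2, a homeobox factor that restrains germ cell entry, had 3.67 and 3.98 in Ck-PGCLCs and 5.72 and 6.36 in parental cells, both below the EpiLC mean of 9.08. Zic5 and the ephrin receptor gene Epha2 fell by 1.94 and 1.63. Sall2 fell by 2.08, and its call was lost without either Ck-PGCLC replicate (adjusted p = 0.059 and 0.085) and without parental replicate 1 (0.104).

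Of the DNA methyltransferase genes, Dnmt3b had 10.50 and 10.94 in Ck-PGCLCs, against 12.46 and 12.61 in parental cells. The groups did not overlap, and the difference of -1.82 missed the threshold (95% interval -3.09 to -0.54, adjusted p = 0.10), though the mean over its probe sets gave -1.79 with an adjusted p of 0.0132. Dnmt3a had 8.06 and 8.25 in Ck-PGCLCs and 9.12 and 9.04 in parental cells, with an adjusted p of 0.058. Dnmt3l had 4.51 and 4.84 in Ck-PGCLCs, overlapping 4.60 and 5.11 in parental cells, while EpiLCs averaged 11.16, so both day 2 groups were far below the starting cells. The 1 gene of 17 in this list that rose was Mbd2, a reader of methylated DNA. Its other probe set gave -0.22, and the mean of all its probe sets was 0.79, under the fold limit.

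Of 23 tested neural genes 3 fell. Sox1, the earliest pan-neural marker, had 1.79 and 2.06 in Ck-PGCLCs, against 7.95 and 6.76 in parental cells, with 4.66 in EpiLCs. The difference was -5.43 (SE 0.56, adjusted p = 3.1e-06). Olig3 had 2.49 and 2.90 in Ck-PGCLCs and 6.53 and 5.15 in parental cells, and its call was lost without Ck-PGCLC replicate 1 (adjusted p = 0.0644) and without parental replicate 1 (0.128). Zic5 is shared with the epiblast list. Nes, an intermediate filament gene of neural precursors, had 7.96 and 8.15 in Ck-PGCLCs, against 9.76 and 9.82 in parental cells, with an adjusted p of 0.14. In the 4 arrays alone Nes was called (limma adjusted p = 0.0184). Pax6 differed by -0.10 and was not called.

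Of 28 tested nascent mesoderm genes 7 rose, Hand1 and Bmp4 among them, and the other 21 had no call. The median difference of the list was 0.19. Mesp1, a master regulator of early mesoderm, had 9.32 and 10.14 in Ck-PGCLCs, against 5.71 and 6.00 in parental cells and 5.80 in EpiLCs, a difference of 3.87 (SE 0.40, adjusted p = 2.7e-06). Isl1, a LIM homeobox gene of lateral mesoderm, had 9.20 and 9.21 in Ck-PGCLCs, against 5.68 and 4.21 in parental cells. Msgn1, a regulator of presomitic mesoderm, had 7.10 and 7.39 in Ck-PGCLCs and 4.25 and 4.18 in parental cells. The WNT agonist gene Rspo3 had 10.24 and 10.50 in Ck-PGCLCs, against 7.76 and 7.39 in parental cells, and both groups were above the EpiLC mean of 2.50. The repressors of epithelial genes Snai2 and Snai1 were also higher. Snai2 had 7.12 and 7.18 in Ck-PGCLCs, against 3.88 and 3.92 in parental cells. Snai1 had 8.18 and 8.60 in Ck-PGCLCs and 6.33 and 6.80 in parental cells, and its call was lost without Ck-PGCLC replicate 2 (adjusted p = 0.105) and without parental replicate 1 (0.106).

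Genes of the primitive streak and mesendoderm split. Of 17 tested, 2 rose and 5 fell, and Chrd and Cer1 are among the 5. Evx1, a homeobox gene of the posterior streak, had 11.02 and 11.04 in Ck-PGCLCs, against 8.87 and 8.78 in parental cells, a difference of 2.21 (SE 0.24, adjusted p = 6.2e-06). Msgn1 was the other gene that rose. Foxa2, which marks the anterior streak, node and endoderm, had 4.24 and 4.59 in Ck-PGCLCs, against 9.93 and 10.52 in parental cells and 3.93 in EpiLCs. Here the parental arrays moved away from the starting cells and the Ck-PGCLC arrays did not, and the difference between them was -5.81 (SE 0.34, adjusted p = 2.1e-09). Foxa1 had 4.13 and 3.83 in Ck-PGCLCs, against 7.03 and 6.68 in parental cells. Gsc, the organizer homeobox gene, had 5.40 and 5.41 in Ck-PGCLCs and 7.68 and 8.69 in parental cells, and its call was lost without either Ck-PGCLC replicate (adjusted p = 0.0791 and 0.0883) and without parental replicate 2 (0.173). Eomes, a T-box factor of streak and trophoblast, had 8.04 and 8.16 in Ck-PGCLCs, against 9.38 and 10.51 in parental cells, with an adjusted p of 0.0659 without parental replicate 2.

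Mixl1 and Hoxb1, of the fixed set, and Fgf8, Lhx1 and Cdx1, picked after their values were seen because they were high in both groups, had no call between the groups. They are given as a description, beside Evx1 and Wnt8a, which were called between the groups. Mixl1 had 8.95 and 8.71 in Ck-PGCLCs and 8.11 and 8.64 in parental cells, against 5.16 in EpiLCs. The difference between the groups was 0.46 (95% interval -1.08 to 2.00). Hoxb1 had 10.63 and 11.01 in Ck-PGCLCs and 11.46 and 10.99 in parental cells, against 3.62 in EpiLCs, with a difference of -0.41 (95% interval -1.36 to 0.55). Fgf8 had 8.59 and 9.31 in Ck-PGCLCs and 8.42 and 9.22 in parental cells, and its EpiLC mean was 3.06. Lhx1 had 7.62 and 7.98 in Ck-PGCLCs, against 8.21 and 8.82 in parental cells, and its EpiLC mean was 0.73. Cdx1 had 9.21 and 8.84 in Ck-PGCLCs and 9.22 and 8.70 in parental cells, and its EpiLC mean was 3.66. The arrays of Mixl1 and Lhx1 did not overlap between the groups, while those of Hoxb1, Fgf8 and Cdx1 did. Each of these 5 genes was called higher than in EpiLCs in both groups, in contrasts that called 8.42% of genes higher and 6.06% lower for Ck-PGCLCs, and 7.23% higher and 5.63% lower for parental cells. Those contrasts share the EpiLC arrays. The log2 differences of Ck-PGCLCs from EpiLCs were 3.67 for Mixl1, 7.20 for Hoxb1, 5.90 for Fgf8, 7.07 for Lhx1 and 5.37 for Cdx1. Parental cells differed from EpiLCs by 3.22 for Mixl1, 7.60 for Hoxb1, 5.77 for Fgf8, 7.78 for Lhx1 and 5.30 for Cdx1. Cdx2 had 9.13 and 9.01 in Ck-PGCLCs, against 7.56 and 5.39 in parental cells, with an adjusted p of 0.066 that became 0.024 without parental replicate 1.

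Of 23 tested endoderm genes, 2 rose and 3 fell (Foxa2, Foxa1 and Cer1). Lama1, a laminin chain gene of basement membranes, had 5.24 and 5.89 in Ck-PGCLCs, against 3.81 and 3.56 in parental cells, and its call was lost without Ck-PGCLC replicate 2 (adjusted p = 0.0738). Sox7, a SOX gene of extraembryonic endoderm and endothelium, had 5.83 and 5.47 in Ck-PGCLCs and 3.67 and 4.01 in parental cells. The call of Sox7 was lost without Ck-PGCLC replicate 1 or parental replicate 1 (adjusted p up to 0.106), and the mean over its probe sets was 0.74 (adjusted p = 0.359). Of 14 tested fibroblast genes, 0 rose and 2 fell. Dcn (decorin), a proteoglycan gene of connective tissue, had 2.42 and 2.36 in Ck-PGCLCs, against 5.98 and 5.65 in parental cells and a mean of 9.02 in EpiLCs. Its difference from parental cells was -3.42 (SE 0.49, adjusted p = 0.00013). Acta2, the smooth muscle actin gene, had 7.98 and 7.90 in Ck-PGCLCs and 9.88 and 10.15 in parental cells. The call of Acta2 was lost without any one array (adjusted p up to 0.175), and the mean over its probe sets was 0.01, with an adjusted p of 0.997. The part of other cell types in these differences was not tested.

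The WNT pathway genes did not move as a block. Of 25 tested ligands, agonists and receptors, 2 rose and 4 fell. Besides Rspo3, the ligand gene Wnt5b rose, with 11.23 and 11.19 in Ck-PGCLCs against 9.62 and 9.43 in parental cells. The receptor gene Fzd2 had 7.14 and 7.52 in Ck-PGCLCs, against 10.67 and 10.35 in parental cells, a difference of -3.19 (SE 0.49, adjusted p = 0.00027). Wnt8a, a ligand of the posterior epiblast and streak, had 8.90 and 8.21 in Ck-PGCLCs, against 11.02 and 10.68 in parental cells. Rspo1 fell by 2.48, and Fzd6 fell by 1.25 with its call lost without Ck-PGCLC replicate 2 (adjusted p = 0.224) and without parental replicate 1 (0.154). Wnt3, the ligand that germ cell competence depends on in the epiblast, had 3.08 and 5.13 in Ck-PGCLCs and 3.22 and 4.62 in parental cells, with wide replicate spread and no call. Of 20 tested WNT target and feedback genes 1 rose, the caudal homeobox gene Cdx4, and its call was lost without either Ck-PGCLC replicate (adjusted p = 0.121 and 0.162) and without parental replicate 2 (0.357). Axin2 had 10.12 and 9.85 in Ck-PGCLCs, against 8.85 and 8.87 in parental cells, with no call (adjusted p = 0.28) and a second probe set at -0.65. In the 4 arrays alone Axin2 was called (limma adjusted p = 0.0463). Sp5 had 9.80 and 9.39 in Ck-PGCLCs and 10.93 and 11.29 in parental cells (adjusted p = 0.082), and Lef1 differed by -0.45 with no call. Of 35 tested Hox and Cdx genes, 2 rose, Cdx4 and Hoxd9, and Hoxd9 had 6.92 and 6.98 in Ck-PGCLCs against 3.63 and 4.08 in parental cells.

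Among 22 tested trophoblast and surface ectoderm genes 8 rose and 2 fell. Hand1, Gata3, Gata2 and Tfap2c are shared with lists above. Grhl3, a factor of the surface ectoderm, had 6.85 and 7.29 in Ck-PGCLCs, against 4.82 and 5.62 in parental cells, with an adjusted p of 0.0519 without parental replicate 1. The members that fell were Eomes and Krt7, a keratin, and Krt7 had 5.48 and 5.44 in Ck-PGCLCs against 6.71 and 6.94 in parental cells, with its call lost without any one array (adjusted p up to 0.243). Of 20 tested imprinted genes 4 rose and 1 fell. Phlda2, a growth-restricting gene expressed from the maternal allele, had 12.37 and 12.52 in Ck-PGCLCs, against 9.30 and 9.64 in parental cells, a difference of 2.98 (SE 0.19, adjusted p = 5.9e-09). Its neighbour in the same imprinted cluster, the cell cycle inhibitor gene Cdkn1c, had 10.65 and 10.79 in Ck-PGCLCs and 8.93 and 8.86 in parental cells. Ascl2, also of that cluster, had 4.69 and 4.61 in Ck-PGCLCs, against 2.62 and 3.29 in parental cells, with an adjusted p of 0.0693 without parental replicate 1. The amino acid transporter gene Slc38a4 differed by 1.21. Mest, expressed from the paternal allele, had 9.18 and 8.72 in Ck-PGCLCs, against 11.47 and 10.54 in parental cells.

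Genes for cell contact and guidance moved in both directions, with 5 of 22 tested members higher and 4 lower. Efna1, an ephrin ligand, had 8.68 and 8.71 in Ck-PGCLCs, against 5.14 and 5.28 in parental cells, a difference of 3.48 (SE 0.25, adjusted p = 2.3e-08). The receptor gene Ephb3 had 9.83 and 9.67 in Ck-PGCLCs and 8.12 and 8.24 in parental cells. Nrp2, a coreceptor for semaphorins and VEGF, had 8.54 and 8.61 in Ck-PGCLCs, against 5.98 and 6.22 in parental cells, and the mean over its probe sets gave 0.93, under the fold limit. Efnb2, another ephrin, had 8.42 and 7.99 in Ck-PGCLCs, against 9.74 and 10.02 in parental cells, and the mean over its probe sets gave -0.62 (adjusted p = 0.268). Sema3e, a secreted semaphorin, had 6.28 and 6.25 in Ck-PGCLCs and 8.01 and 8.80 in parental cells, and its 4 probe sets above the filter all had the same sign. Of 16 tested Notch pathway genes 2 rose, and Hey1, a transcriptional effector of Notch and BMP, had 8.42 and 8.54 in Ck-PGCLCs against 6.24 and 5.67 in parental cells. The other was Notch1, whose difference of 1.08 lost its call without Ck-PGCLC replicate 1 (adjusted p = 0.135) and without parental replicate 2 (0.119).

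**Figure D3:**
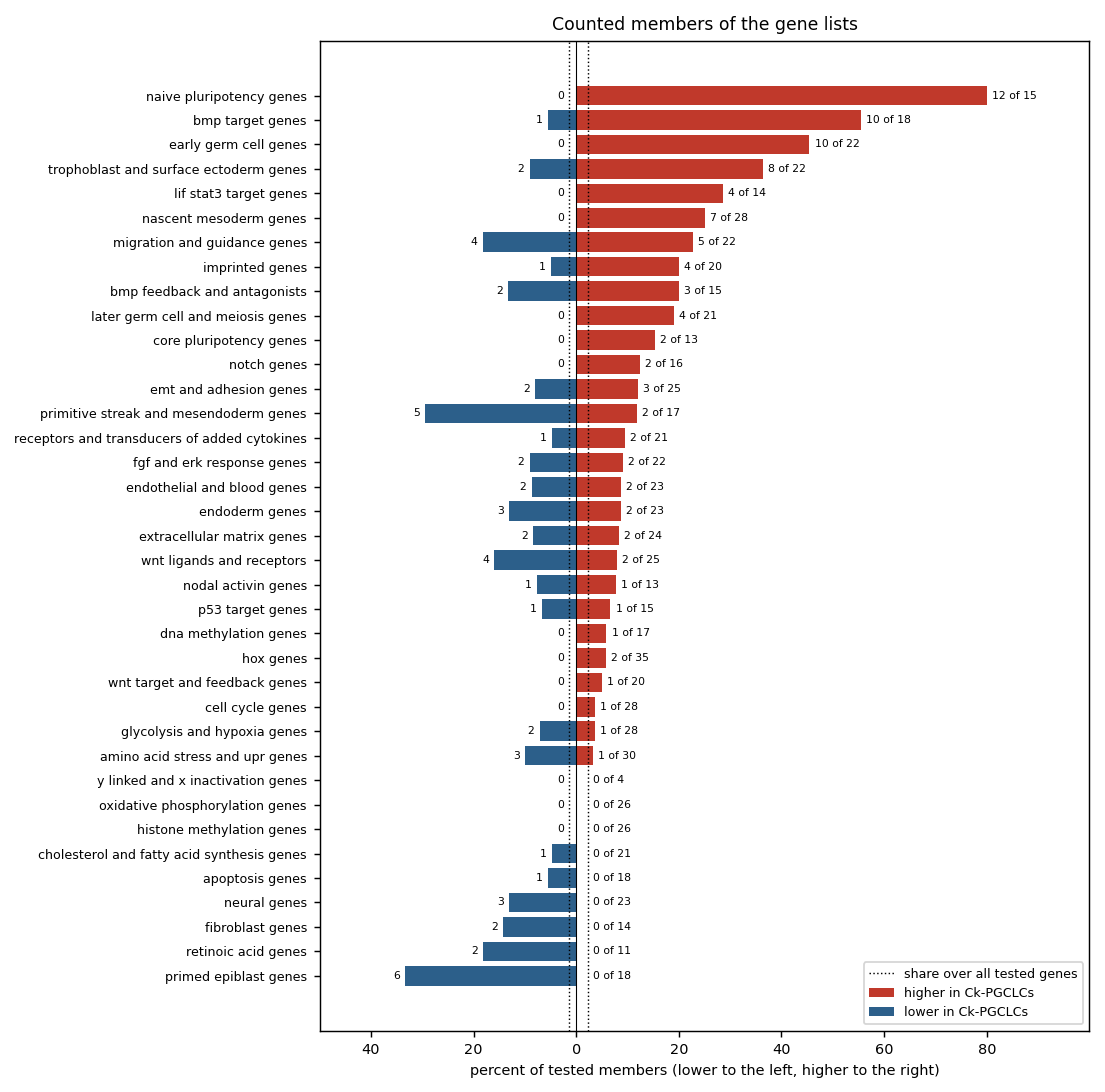
Percent of the tested members of 37 gene lists counted as higher (red, to the right) or lower (blue, to the left) in Ck-PGCLCs than in parental cells at day 2, with the counts beside the bars and dotted lines at the 2.32% and 1.41% counted over all tested genes. Naive pluripotency genes (12 of 15), BMP targets (10 of 18) and early germ cell genes (10 of 22) reach furthest to the right, and primed epiblast genes (6 of 18) and streak genes (5 of 17) furthest to the left.

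The 12 largest rises were Hand1, Cyp2s1, Msx2, Prdm14, Bmper, Gata3, Rhox9, Gata2, Ifi35, Mymx, Isl1 and Krt23. Those not yet described include Cyp2s1, a cytochrome P450 gene that metabolizes retinoids, with 10.09 and 10.27 in Ck-PGCLCs against 3.85 and 4.76 in parental cells and 5.55 in EpiLCs. Its log2 difference was 5.88 (SE 0.44, adjusted p = 4.6e-08). Mymx, which codes for a micropeptide of muscle cell fusion, had 6.87 and 7.54 in Ck-PGCLCs, against 2.47 and 3.41 in parental cells. Krt23, a type I keratin gene, had 5.07 and 5.18 in Ck-PGCLCs and 0.36 and 1.42 in parental cells.

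The 12 largest falls were Fgf5, Foxa2, Sox1, Ccl20, Lratd1, Lipf, Eras, Klhl4, Pou3f1, Nrcam, Ltb and Mab21l2. Eras, a constitutively active RAS gene of ESCs, had 5.63 and 5.29 in Ck-PGCLCs, against 9.73 and 10.26 in parental cells, with 10.30 in EpiLCs. The difference was -4.54 (SE 0.21, adjusted p = 5.7e-11). Nrcam, a neural cell adhesion gene, had 6.24 and 5.82 in Ck-PGCLCs and 9.66 and 9.83 in parental cells, and the mean over its probe sets gave -1.30 (adjusted p = 0.0603). Lratd1 had 2.15 and 1.68 in Ck-PGCLCs, against 6.96 and 6.45 in parental cells, and Klhl4 had 1.10 and 1.50 in Ck-PGCLCs, against 5.31 and 5.73 in parental cells. Lipf, a gastric lipase gene, rested on parental replicate 1, with 0.43 and 1.14 in Ck-PGCLCs against 8.25 and 2.45 in parental cells, and without that array its difference was -1.66 (adjusted p = 0.577). The chemokine gene Ccl20 had 2.03 and 0.03 in Ck-PGCLCs and 6.41 and 6.38 in parental cells, with an adjusted p of 0.0909 without Ck-PGCLC replicate 2. Ltb (lymphotoxin beta) fell by 3.69, to no more than 5.52 in Ck-PGCLCs against 9.01 and 9.39 in parental cells, with an adjusted p of 0.0627 without parental replicate 2. Mab21l2 fell by 3.56, with an adjusted p of 0.0563 without Ck-PGCLC replicate 2.

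The day 2 difference was set beside day 4 of the same induction, where 5.68% of genes were called higher at day 4 than at day 2 and 6.84% lower. This contrast shares the day 2 Ck-PGCLC arrays. Of the 22 tested early germ cell genes, 12 were called higher at day 4 and 1 lower. Prdm14 had 10.54 and 10.69 at day 4, a log2 difference of 2.01 from day 2, and Dppa3 had 12.71 on both day 4 arrays, a difference of 3.20 (SE 0.25, adjusted p = 2.9e-08). Kit, with no call at day 2, had 11.58 and 11.70 at day 4, a difference of 3.59 from day 2, and Itgb3 had 8.54 and 8.36, a difference of 4.65. Of the 28 tested nascent mesoderm genes, 0 were called higher at day 4 and 11 lower. Mesp1 had 5.26 and 5.67 at day 4, a difference of -4.27 from day 2 that took it to its EpiLC level, and Bmp4 had 6.83 and 7.43, a difference of -3.51. Mixl1 had 3.78 and 0.58, and Hoxb1 had 3.15 and 3.23. Hand1 was called lower at day 4 than at day 2 (difference -1.99), but with 8.04 and 7.73 it was still above its EpiLC mean of 3.50. Bambi, with 9.25 and 9.74 at day 4, had no call between the days. Dnmt3b had 7.91 and 7.46 at day 4 and was called lower than at day 2 (difference -3.03, adjusted p = 0.001).

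**Figure D4:**
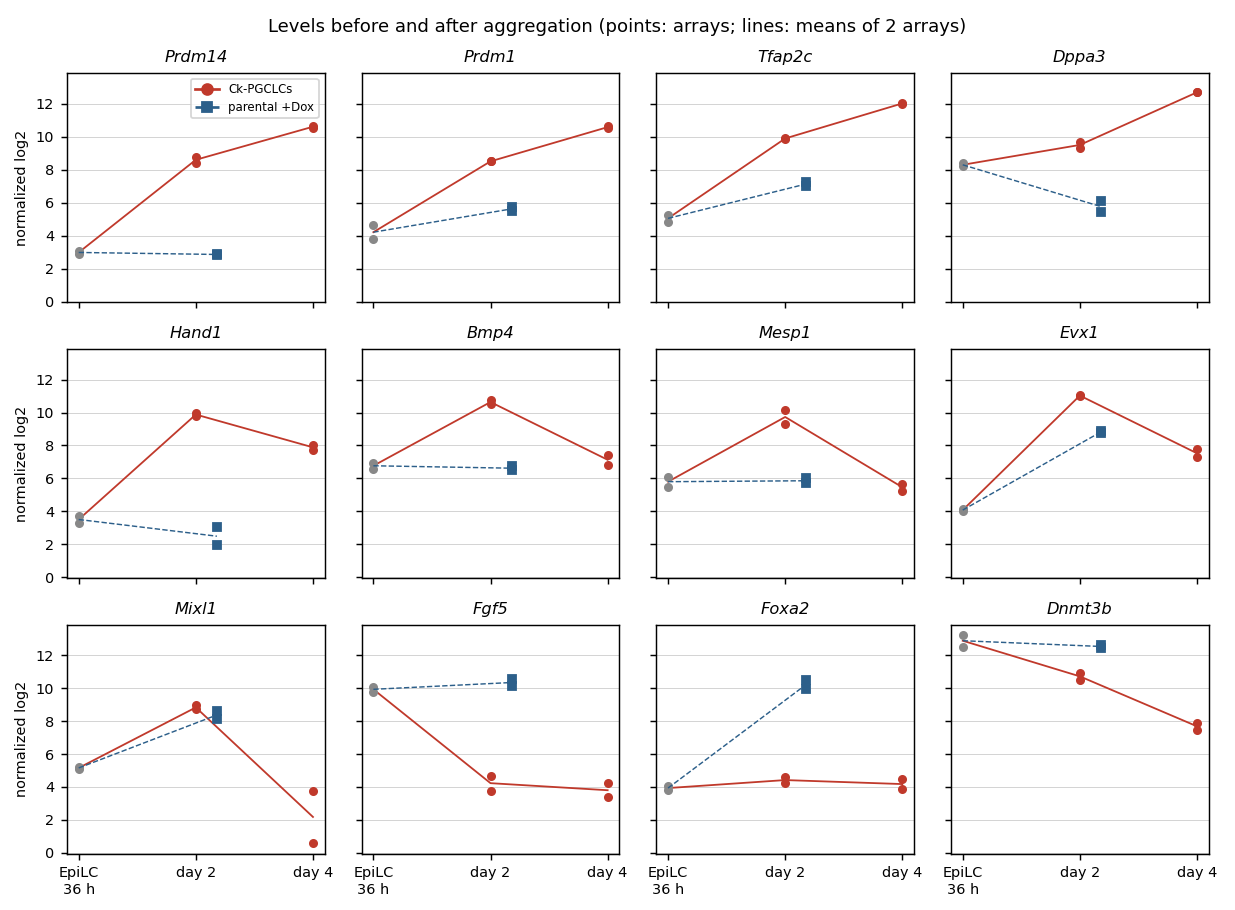
Normalized log2 intensity (vertical axis) of 12 genes in EpiLCs, in Ck-PGCLCs at days 2 and 4 (red points and line) and in parental cells at day 2 (blue squares and dashed line), with a point for each array and lines through the means of 2 arrays. The germ cell genes of the top row are highest in Ck-PGCLCs at day 4, Hand1, Bmp4, Mesp1 and Evx1 peak at day 2, and Foxa2 is high in parental cells alone.

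In BP14A cells, induced by factor transgenes without cytokines, some of the genes that separated Ck-PGCLCs from parental cells were high and others low. Ck-PGCLCs were called higher than BP14A cells for 7.01% of genes and lower for 5.55%, in a contrast that shares the Ck-PGCLC arrays with the main one. Hand1 had 9.78 and 9.98 in Ck-PGCLCs against 3.32 and 2.80 in BP14A cells, and Id1 had 12.86 on both Ck-PGCLC arrays against 6.67 and 6.83 in BP14A cells. Mesp1 had 9.32 and 10.14 in Ck-PGCLCs against 6.10 and 5.56 in BP14A cells, and Evx1 had 11.02 and 11.04 against 3.73 and 3.78 in BP14A cells. Each of these 4 genes was called higher in Ck-PGCLCs. Dppa3 was called lower, with 9.34 and 9.69 in Ck-PGCLCs against 12.91 and 12.70 in BP14A cells, and so was Esrrb, with 9.45 and 9.95 in Ck-PGCLCs against 11.97 and 12.07 in BP14A cells. Fgf5 had 4.68 and 3.78 in Ck-PGCLCs against 7.95 and 7.46 in BP14A cells. Foxa2, high in parental cells, had 3.93 and 3.25 in BP14A cells, with no call against Ck-PGCLCs.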

How the data were processed

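Per the labels' protocols, RNA from about 20000 cells was turned into cDNA, amplified by PCR and hybridised as biotinylated cRNA to 1-colour Affymetrix arrays. The authors deposited log2 values per probe set and array, here between 0 and 14.59. That scale was inferred from the range of the values, and the summarisation and normalization software is not given in the sources used here. Array medians ran from 4.62 to 4.79, a range of 0.17 over the tolerance of 0.1, so the 32 arrays were quantile normalized, which removes shifts in overall RNA amount. The number of arrays limits the precision.

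Of 45101 probe sets, 64 were controls, 34945 had 1 gene symbol, 932 had several, and 9160 were not listed or had no symbol. Through the platform annotation 34741 matched a RefSeq gene of GRCm38.p6. Each of 18193 genes took its brightest probe set. A gene was tested if a group mean reached the 40th percentile (4.05). The whole series was fitted in limma 3.58.1 (R 4.3.3; data.table, version 1.17.8) with 16 group means and 16 residual degrees of freedom, adjusted by Benjamini-Hochberg over 15497 genes. A simulated data set with 200 known changes and independent noise on each array was used to test the fit. It recovered 69.7% of changes of 1.5 log2 units, 85.1% of those of 2 and 91% of those of 3, with 10 false calls. No replicate pair was identical (0 pairs with every value equal).

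The members and the 37 lists (747 genes, 43 of them not analysed here, among them T and Nanos3) were chosen with earlier results of these data known. Named genes were the 12 largest rises and falls without clone or model numbers, up to 4 per list and direction, and a fixed set. Outside the rule, Id4, Tbx2, Dnd1, Elf3, Fut4, Ifitm1, Ifitm3, Itgb3, Klf2, Tcl1, Zfp42, Nr0b1, Dppa5a, Fgf8, Lhx1, Cdx1, Sp5, Nes, Grhl3 and Ephb3 were chosen after their values were seen. So were the interferon-induced genes Psmb8, Gbp3, Ifih1, Parp14 and Rnf213. Alternatives were other normalizations, filters, probe set rules, empirical Bayes settings, thresholds and array sets, a replicate block and leaving out each array.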

Additional observations from a re-analysis of the deposited data

How the results depend on the processing

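The counts of 360 higher and 218 lower genes became 398 and 198 with the deposited values, 373 and 218 with median centring, 357 and 215 without the filter, 359 and 210 with the 60th percentile filter, 291 and 187 with the mean of all probe sets, 361 and 221 with trend and robust options, 263 and 148 at an adjusted p under 0.01, and 487 and 327 without the fold limit. Fits on the 4 arrays alone gave 300 and 192. Fits on the 22 newly submitted arrays gave 388 and 247. Omission of single arrays gave 251 to 281 higher and 146 to 198 lower genes. With the replicate block the counts were 372 and 224 over all arrays, but 46 and 13 in the 4 arrays alone. Replicate 1 minus replicate 2 correlated at 0.133 between the groups, and with 2 arrays a group this does not show that the numbers pair the samples. A correlation over all genes can also miss offsets of single genes. For Id2 and Smad7 replicate 2 was the higher in both groups. Both were called with the block over all arrays (limma adjusted p = 0.0403 and 0.0484). Whether the replicate numbers mark a shared offset was not tested. Of 112 called genes named in the text, 83 kept their call without each array in turn and 29 lost it without at least 1. Of the 112, 111 kept it with the deposited values, 112 with median centring, 110 in the 22 newly submitted arrays, 98 at an adjusted p under 0.01, 89 in the 4 arrays alone and 36 with the replicate block in those 4 arrays. When a gene took the mean over its probe sets, 96 of 110 kept it. Genes that lost it in the 4 arrays alone included Bmper (adjusted p = 0.0576), Id4 (0.0582), Nr0b1 (0.0689), Eomes (0.105) and Crabp1 (0.104). None of 76 higher genes and 1 of 36 lower genes changed sign, namely Acta2 when its probe sets were averaged (0.005). The 28 genes without a call named outside the marker panels gained one in 13 instances over all settings, for Smad7 in 4, for Cdx2 in 3, for Dnmt3b in 2 and for Il6st, Id2, Axin2 and Nes in 1 each. Among these 28, the sign of Bmpr1a turned with the mean of all probe sets (-0.048). Without single arrays the log2 difference ran from -0.075 to 0.189 for Bmpr1a, from -0.201 to 0.325 for Cdx1, from -0.274 to 0.527 for Fgf8, from -0.839 to 1.21 for Wnt3, from -0.062 to 0.243 for Pou5f1, from -0.663 to 0.018 for Itgb3, from -0.226 to 0.024 for Pax6 and from -0.434 to 0.075 for Dnmt3l, so these signs turned too. The cause was not tested.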

Other observations

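The 6 genes given here are known to be induced by interferon. Ifi35 was named as one of the 12 largest rises. The others were chosen after their values were seen, and no list of such genes was counted. Ifi35 had 9.23 and 9.34 in Ck-PGCLCs, against 4.74 and 5.18 in parental cells and a mean of 8.57 in EpiLCs, and its 3 probe sets gave log2 differences between 3.45 and 4.32. Psmb8, a subunit of the immunoproteasome, had 10.17 and 10.25 in Ck-PGCLCs, against 7.01 and 6.79 in parental cells. Gbp3, a guanylate-binding protein gene, had 8.63 and 8.49 in Ck-PGCLCs, and its log2 difference from parental cells was 3.33. Ifih1 (MDA5), a sensor of double-stranded RNA, had 8.33 and 7.92 in Ck-PGCLCs, against 5.16 and 4.61 in parental cells. Parp14 had 8.47 and 8.49 in Ck-PGCLCs and 5.13 and 4.80 in parental cells, with a mean over all probe sets of 1.86 (limma adjusted p = 0.0656). Rnf213 had 10.75 and 10.66 in Ck-PGCLCs, against 7.33 and 7.30 in parental cells, and 1 of its 2 probe sets above the filter gave -0.19.

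Of 21 tested genes of later germ cells and meiosis, 4 were higher in Ck-PGCLCs, at levels of 6.15 or less. Tdrd12, a Tudor protein of the piRNA pathway, had 5.46 and 6.15 in Ck-PGCLCs, against 3.45 and 3.90 in parental cells and 10.08 in EpiLCs, a difference of 2.13 (SE 0.35, adjusted p = 0.00049). Dazl, an RNA-binding protein gene of germ cells, had 3.08 and 2.94 in Ck-PGCLCs and 1.12 and 0.12 in parental cells, all below the filter value, against 7.37 in EpiLCs, and another probe set gave a difference of 0.01. Hormad1, a gene of meiotic chromosomes, was below the filter value on all 4 arrays too, with 3.64 and 3.49 in Ck-PGCLCs against 1.94 and 1.96 in parental cells. Both genes were tested because other groups passed the filter. The calls of Dazl, Hormad1 and Sycp1 were each lost without at least 2 of the 4 arrays. Of 11 tested retinoic acid genes, 2 were lower, and Crabp1, a retinoic acid-binding protein gene, had 6.20 and 6.68 in Ck-PGCLCs against 10.89 and 8.79 in parental cells. Of 23 tested endothelial and blood genes, 2 were higher and 2 lower, with a median difference of -0.16. Lmo2, a LIM protein gene of blood and endothelium, had 7.74 and 6.93 in Ck-PGCLCs, against 9.25 and 9.44 in parental cells. Its difference of -2.02 became -1.61 without Ck-PGCLC replicate 2, where its call was lost. The call was also lost in the 4 arrays alone (limma adjusted p = 0.0576).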
